A study of Mus musculus with 9 samples.

Results

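The 8 genes described here encode the kinases that phosphorylate the translation factor eIF2alpha, eIF2alpha itself, a phosphatase subunit that reverses the mark, and a protease and its messenger that carry mitochondrial stress to this switch. They were taken by gene symbol from the deposited table of 54532 genes: Eif2ak1, Eif2ak2, Eif2ak3, Eif2ak4, Eif2s1, Oma1, Ppp1r15b and Dele1. All 8 had a mean FPKM (reads per kilobase of gene length, scaled to sequencing depth) of at least 1 over the libraries and were among the 17266 genes tested. The genes were listed by symbol and role and not by a cut-off on their values, with earlier results of these data known.

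In the integrated stress response, 4 kinases sense different stresses and phosphorylate the same serine of eIF2alpha, which slows translation and favours the factor ATF4. HRI (Eif2ak1) responds to haem shortage and to mitochondrial stress, PKR (Eif2ak2) to double-stranded RNA, PERK (Eif2ak3) to unfolded protein in the endoplasmic reticulum, and GCN2 (Eif2ak4) to amino acid shortage and stalled ribosomes. In the mitochondrial relay the inner membrane protease OMA1 cleaves DELE1, and cleaved DELE1 activates HRI in the cytosol. CReP (Ppp1r15b) directs protein phosphatase 1 to eIF2alpha in unstressed cells, and GADD34 (Ppp1r15a) does so under stress. All of these steps act on proteins, and RNA levels do not report the activity of any of them.

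The material was labelled male germ cells and titled spermatocytes of mice at PD 35, with 3 libraries of wild-type controls, 3 of ClpP cKO and 3 of ClpX cKO (conditional knockouts). Stra8-Cre, a recombinase active in germ cells from the late spermatogonial stage, removed Clpp or Clpx, which encode a protease of the mitochondrial matrix and the ATPase that feeds it. The labels name no Cre for the controls, no way of isolating the cells and no source animals. The p-values therefore cover the spread between libraries alone, and that spread may be technical. The comparisons ask how the RNAs of this stress pathway differ once either gene is removed.

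The libraries held 14334436 to 17021685 gene reads. Clpp was at 3.69 to 6.15 FPKM in ClpP cKO against 8.46 to 9.36 in the controls, and Clpx at 11.3 to 15.6 in ClpX cKO against 54.7 to 59.3. The partner gene also stood apart from the controls in each knockout: Clpx was at 36.0 to 40.3 FPKM in ClpP cKO, and Clpp at 12.5 to 14.1 in ClpX cKO. Reads of genes on the mitochondrial genome were 0.833 to 0.956% of gene reads in control libraries, 1.48 to 1.63% in ClpP cKO and 2.23 to 2.94% in ClpX cKO, and the part of this shift in the results was not tested. The deposited values carry a factor between libraries: the denominator behind FPKM, divided by the gene reads of the same library, was 0.919 ± 0.028 for controls, 1.05 ± 0.0037 for ClpP cKO and 1.07 ± 0.017 for ClpX cKO (SD, n = 3). Changes below are fitted on log2(FPKM + 1) as deposited, which understates the change of genes near 1 FPKM, and results that move under another scaling are given with it.

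Markers of other cells were present and moved with the groups. The summed FPKM of 10 elongating spermatid markers was 17590, 16627 and 8038 in Controls 1, 2 and 3. It was 4639 to 5530 for ClpP cKO and 1701 to 2598 for ClpX cKO, with ClpX cKO 1 the highest of its group. All 10 markers fell in both knockouts. The summed FPKM of 12 Sertoli cell markers was 496 to 523, 715 to 799 and 904 to 1263 in the same order, and all 12 rose in both. Round spermatid markers fell too, 9 of 10 in ClpP cKO and 10 of 10 in ClpX cKO, as did 6 and 7 of 10 pachytene and diplotene markers, while 6 of 10 early meiotic prophase markers rose in each and 1 fell in ClpX cKO. In ClpX cKO 8 of 10 spermatogonial markers, 7 of 7 tested immune markers, 6 of 8 stromal markers and 2 of 8 Leydig cell markers also rose, against 6, 3, 2 and 0 in ClpP cKO. One spermatogonial marker fell in ClpX cKO. No marker of these lists was at 0 in any library. In these bulk samples a change in the number of cells of a type and a change in RNA per cell cannot be told apart, and the part of changed cell shares in the results below was not tested.

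The sequences that bear on the members are shown first. The shared target of the 4 kinases lies in exon 2 of 8 of Eif2s1 (GRCm38, chr12:78866659-78866703, plus strand), in coding sequence of the GENCODE transcript. The codon in capitals is codon 52 with the first methionine counted, the serine known as serine 51.
Eif2s1 coding sequence: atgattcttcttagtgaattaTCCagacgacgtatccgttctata

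Promoter windows of 250 bases before the start were searched on both strands, from RefSeq (GRCm38.p6), where 6 of the 8 genes had an entry, with 7 windows in all. Eif2ak3, the member with the largest fitted increase in ClpX cKO, had 6 CCAAT boxes (CCAAT, in capitals on either strand; chr6:70844265-70844514, plus strand). Eif2ak1, which was not called, had 1 box, and the windows of Eif2ak4, Oma1 and Eif2s1, which were called in ClpX cKO, had 0, as did that of Eif2ak2. The motif was chosen after the sequences were seen. One or more CCAAT stood in 33.8% of all 32851 windows and 6 or more in 0.0578%.
Eif2ak3 promoter: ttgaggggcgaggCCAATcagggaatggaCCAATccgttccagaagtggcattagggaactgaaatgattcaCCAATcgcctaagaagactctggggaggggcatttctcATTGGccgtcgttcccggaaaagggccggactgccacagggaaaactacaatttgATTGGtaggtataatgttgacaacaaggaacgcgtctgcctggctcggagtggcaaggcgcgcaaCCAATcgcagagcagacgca

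Eif2s1, the only member that fell, and Oma1, which rose in ClpX cKO, carried the core of the binding motif of NRF-1 (GCNTGCGC), a factor of many mitochondrial and housekeeping genes. Eif2s1 had 2 cores and Oma1 had 1. This motif too was chosen after the sequences were seen, and binding of NRF-1 or its part in these changes was not tested. All windows held a core in 8.3% of cases and 2 or more in 2.06%. The sites lie before the RefSeq start but inside the first exon of the GENCODE models. They are at chr12:78862019-78862040, chr12:78862043-78862064 and chr4:103313818-103313839, all on the plus strand, with the core in capitals.
Eif2s1 site 1: tgtcggcGCCTGCGCagtgaga
Eif2s1 site 2: tggctccGCATGCGCgctgggt
Oma1 site: ggtgtgcGCCTGCGCggagccg

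The composite element bound by ATF4 with C/EBP factors (TGATGNAAN) was in 3.44% of all windows and the cyclic AMP response element (TGACGTCA) in 1.55%. Neither stood in any of the 7 windows of the members, counted as 0 matches each.

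Levels in the controls ranged widely. Per gene length, Dele1 (39.8 ± 3.04 FPKM, mean ± SD, n = 3) and Eif2s1 (36.6 ± 1.40) were the most abundant, and their control libraries overlapped. Eif2ak1 (10.8 ± 0.432) and Ppp1r15b (10.1 ± 0.308) followed and also overlapped. Below them lay Eif2ak2 (4.36 ± 0.621), Eif2ak4 (2.36 ± 0.0112), Oma1 (1.90 ± 0.139) and Eif2ak3 (1.05 ± 0.179), each apart from its neighbours. The relay therefore joined a protease RNA at the 18.2th percentile of tested genes in the controls to a messenger RNA at the 89.5th. In ClpX cKO Ppp1r15b (14.0 ± 0.946) lay above Eif2ak1 (11.6 ± 0.644) without overlap, the reverse of the order of their control means. Eif2s1 (26.7 ± 1.80) lay below Dele1 (42.0 ± 1.34), as in the controls, but here without overlap. The plot of FPKM by library shows all 72 values.

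**Figure D1:**
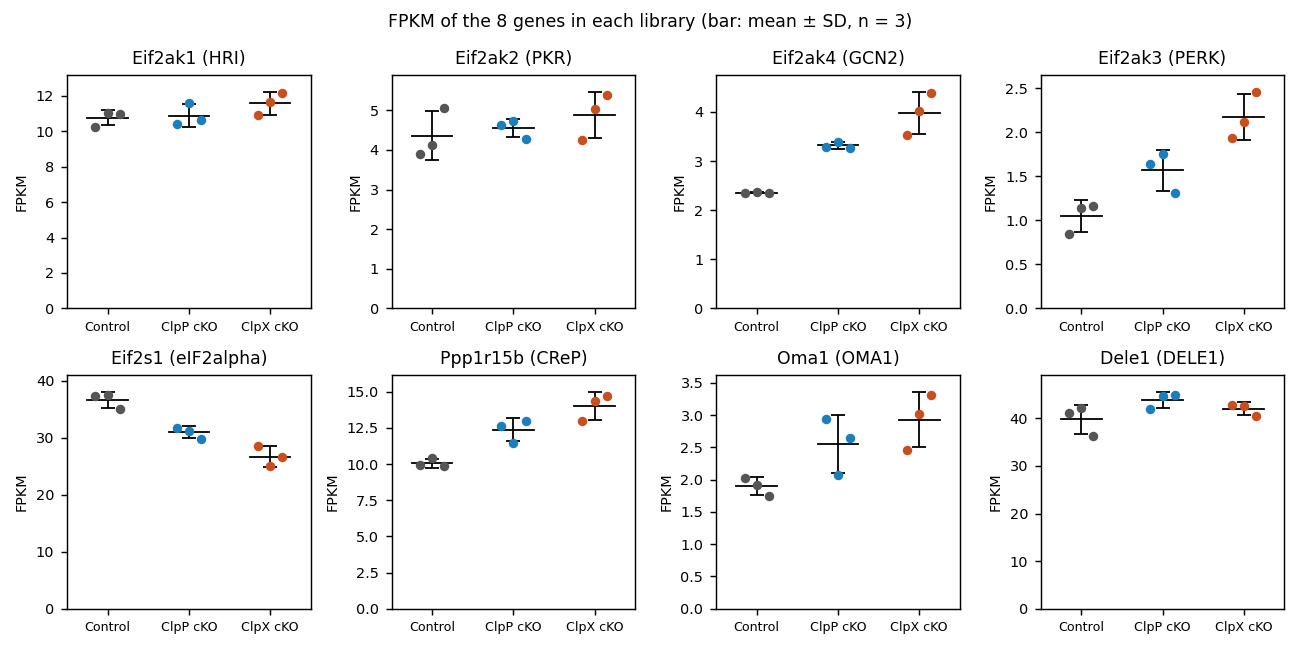
FPKM (vertical axes, from 0) of each of the 8 genes in the 3 control, 3 ClpP cKO and 3 ClpX cKO libraries; points are libraries and bars the mean ± SD. Eif2ak4, Eif2ak3, Ppp1r15b and Oma1 lie higher and Eif2s1 lower in every knockout library than in every control, while Eif2ak1, Eif2ak2 and Dele1 overlap the controls.

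Against control, 3 of the 8 genes were called in ClpP cKO, where 44.7% of all tested genes and 49.3% of protein-coding ones were called: Eif2ak4 and Ppp1r15b rose and Eif2s1 fell. In ClpX cKO 5 of 8 were called, where 65.6% and 70.6% were: Eif2ak3, Eif2ak4, Ppp1r15b and Oma1 rose and Eif2s1 fell. Both shares are near or below those of all genes, so the number of called members does not stand out. The median change of the members was 0.20 (log2) in ClpP cKO and 0.29 in ClpX cKO, beside 0.01 and 0.00 over all tested genes and 0.08 and 0.11 over protein-coding ones. The libraries of 5 of 8 members did not overlap the controls in either knockout, beside 61.7% of tested genes in ClpP cKO and 69.8% in ClpX cKO. Both comparisons share the control libraries.

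**Figure D2:**
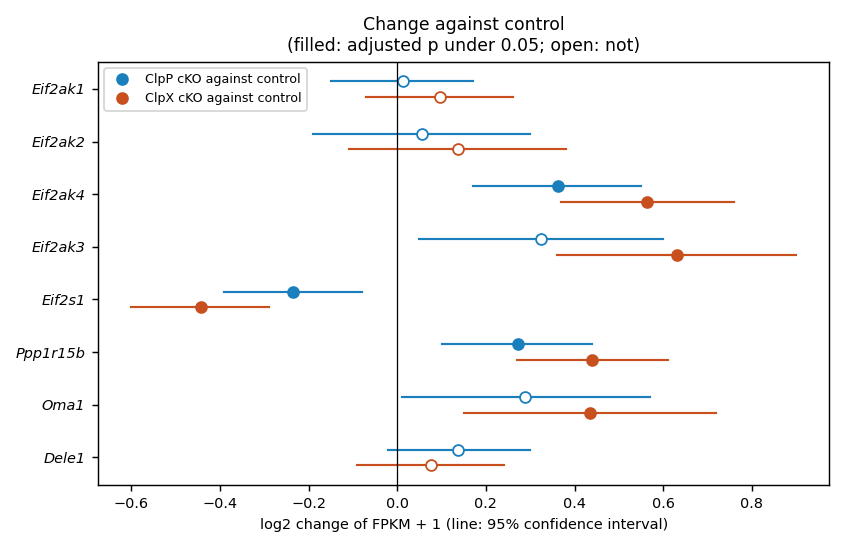
Fitted log2 change of FPKM + 1 (horizontal axis) of each gene in ClpP cKO and ClpX cKO against control, with the 95% confidence interval as a line; filled points have an adjusted p under 0.05 and open points do not. Changes run from -0.44 for Eif2s1 to 0.63 for Eif2ak3, both in ClpX cKO, and the intervals of Eif2ak1, Eif2ak2 and Dele1 include 0.

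Among the kinases, GCN2 RNA rose in both knockouts, PERK RNA rose in ClpX cKO, and HRI and PKR RNA were not called in either. Eif2ak4, the amino acid sensor (ENSMUSG00000005102, chromosome 2, 118388618 to 118475234), had 2.35, 2.37 and 2.35 FPKM in the controls, 3.29, 3.40 and 3.26 in ClpP cKO and 3.53, 4.02 and 4.39 in ClpX cKO. The 3 groups did not overlap. It rose by 0.36 in ClpP cKO (log2, SE 0.08, adjusted p = 0.013), 1.41-fold in mean FPKM, and by 0.56 in ClpX cKO (SE 0.08, adjusted p = 7.1e-04), 1.69-fold. This was the member whose control libraries agreed most closely, on 239 to 270 reads each, and its call against control was kept in both knockouts without any single library. The change was 0.68 and 0.97 by limma voom on recovered reads, a scale with no pseudocount of 1 and with own totals.

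Eif2ak3, the sensor of the endoplasmic reticulum (ENSMUSG00000031668, chromosome 6, 70844515 to 70905245), was the rarest of the 4 kinase RNAs. It was at 0.846, 1.14 and 1.17 FPKM in the controls, 1.64, 1.75 and 1.31 in ClpP cKO and 1.94, 2.12 and 2.46 in ClpX cKO, on 73 to 253 reads per library. Every ClpX cKO library lay above every ClpP cKO library, and every one of those above the controls. The rise of 0.63 in ClpX cKO (SE 0.12, adjusted p = 0.0020) was 2.07-fold in mean FPKM, the largest among the members in log2 change and in fold of mean FPKM. With a pseudocount of 0.1 it was 0.99, and by voom 1.28. In ClpP cKO the change was 0.32 (SE 0.12, adjusted p = 0.055) and was not called, though it was called by voom, at 0.76, and under scaling by own totals, at 0.42.

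Eif2ak1, the kinase at the end of the mitochondrial relay (ENSMUSG00000029613, chromosome 5, 143817788 to 143904251), was the most abundant of the 4. It was at 10.3, 11.0 and 11.0 FPKM in the controls, 10.4, 11.6 and 10.6 in ClpP cKO and 10.9, 11.7 and 12.2 in ClpX cKO, with overlap between all groups. Its change was 0.01 in ClpP cKO (95% interval -0.15 to 0.17) and 0.10 in ClpX cKO (-0.07 to 0.26), neither called. Under own totals and by voom it was called in ClpX cKO, at 0.30 and 0.33. In GENCODE its exons share 172 bases with those of Ankrd61 on the other strand, which was at 65.1 FPKM in the controls and 26.4 in ClpX cKO, and 487 bases with those of Aimp2. Whether the counting used strand is not given in the sources used here, so reads there cannot be assigned to 1 gene.

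Eif2ak2, the sensor of double-stranded RNA (ENSMUSG00000024079, chromosome 17, 78852564 to 78882573), had 3.89, 4.12 and 5.06 FPKM in the controls, 4.63, 4.73 and 4.29 in ClpP cKO and 4.25, 5.04 and 5.38 in ClpX cKO. Control 3 lay within the range of ClpX cKO. Its change was 0.06 in ClpP cKO (95% interval -0.19 to 0.30) and 0.14 in ClpX cKO (-0.11 to 0.38), neither called. The latter was called under own totals, at 0.32, and by voom, at 0.40. It was also called, at 0.31, without Control 3 and ClpX cKO 1 together. These were the highest control and the lowest ClpX cKO library for this gene, so leaving both out could only widen the difference. No single library left out gave a call.

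Within a library, the share of each kinase in the summed FPKM of the 4 cannot be moved by a factor between libraries. The sum itself was 18.5 ± 1.11 FPKM for controls, 20.3 ± 1.04 for ClpP cKO and 22.6 ± 1.90 for ClpX cKO (SD, n = 3). PERK took 4.88, 6.10 and 5.98% of it in the controls, 8.24, 8.14 and 6.72% in ClpP cKO and 9.42, 9.30 and 10.1% in ClpX cKO. GCN2 took 12.8 ± 0.761%, 16.4 ± 0.488% and 17.6 ± 0.435% (SD, n = 3). In an exact two-sided permutation test of a difference among the 3 groups over 9 libraries, both gave p = 0.0036 (adjusted over the 4 kinases, 0.0071), the smallest the 1680 assignments can give. HRI held the largest share throughout, but a smaller one in the knockouts, at 58.1 ± 1.77%, 53.5 ± 1.32% and 51.3 ± 1.49% (exact permutation p = 0.0071, adjusted 0.0095). The 4 shares of a library make up a whole, so larger shares of PERK and GCN2 require smaller ones elsewhere. The 4 tests are therefore not independent. HRI RNA itself was not lower, at means of 10.8, 10.9 and 11.6 FPKM. For PKR the shares were 23.5 ± 2.12%, 22.4 ± 0.704% and 21.6 ± 0.825%, and the test was not passed (exact permutation p = 0.27). These calls were the same without any single library and on reads not divided by gene length.

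**Figure D3:**
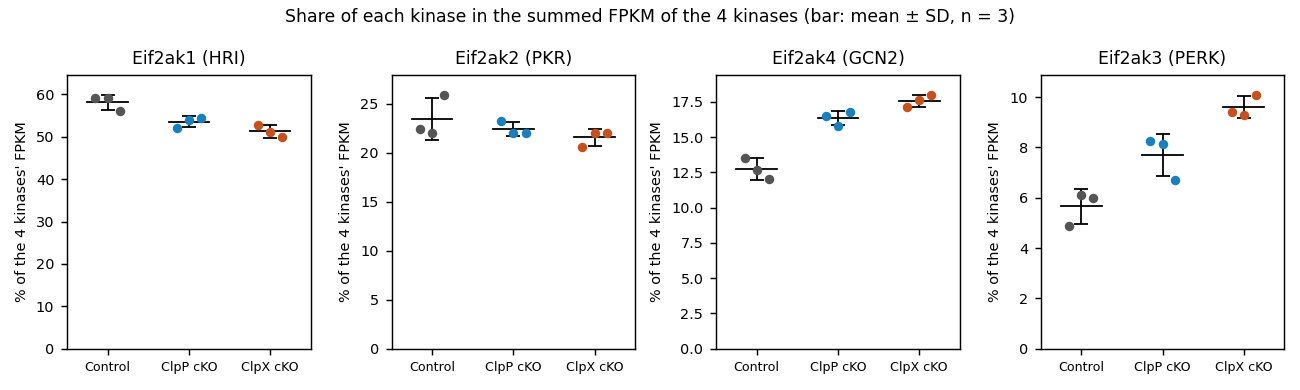
Share (vertical axes, percent, from 0) of each kinase in the summed FPKM of the 4 eIF2alpha kinases within each library, by group; points are libraries and bars the mean ± SD. The share of Eif2ak1 is 58.1% in the controls and 51.3% in ClpX cKO, while those of Eif2ak4 and Eif2ak3 are higher in both knockouts.

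RNA of the kinases' substrate moved the other way. Eif2s1 (ENSMUSG00000021116, chromosome 12, 78861819 to 78887010), the alpha subunit of eIF2, was at 37.3, 37.4 and 35.0 FPKM in the controls, 31.8, 31.2 and 29.8 in ClpP cKO and 28.5, 25.0 and 26.5 in ClpX cKO, on 2163 to 2831 reads per library. No group overlapped another. It fell by 0.24 in ClpP cKO (SE 0.07, adjusted p = 0.024), to 0.845 times the control mean, and by 0.44 in ClpX cKO (SE 0.07, adjusted p = 7.9e-04), to 0.730 times. The call in ClpP cKO was lost without Control 1, Control 2, ClpP cKO 2 or ClpP cKO 3, where the change lay between -0.24 and -0.21. It was also lost under own totals and by voom, at -0.06 each, and under quantile normalization, at 0.01. In ClpX cKO it was -0.22 under own totals, -0.23 by voom and -0.13 under quantile normalization, the last not called.

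None of the other subunits of eIF2 fell with the alpha subunit. Eif2s2, the beta subunit, was at 19.7 ± 0.919 FPKM for controls, 25.3 ± 0.227 for ClpP cKO and 22.7 ± 0.395 for ClpX cKO (SD, n = 3), and rose by 0.35 (SE 0.06, adjusted p = 0.0086) and 0.19 (SE 0.06, adjusted p = 0.016). The second of these calls was lost without Control 1, at 0.16, and in a fit of the 6 libraries compared, at 0.19. Eif2s3x, the X-linked gamma subunit, rose by 0.41 in ClpP cKO and 0.64 in ClpX cKO, where it was 1.80-fold in mean FPKM. Eif2s3y, the Y-linked gamma subunit, was not called, at -0.03 (adjusted p = 0.81) and 0.13 (adjusted p = 0.18, limma). Within a library, the log2 ratio of Eif2s1 to Eif2s2 was 0.999, 0.890 and 0.781 in the controls, 0.330, 0.286 and 0.243 in ClpP cKO and 0.355, 0.140 and 0.200 in ClpX cKO. All knockout libraries lay below all controls (exact permutation p = 0.018 among 3 groups, adjusted over 5 ratios 0.022), and both knockouts were lower than control by a similar amount, -0.60 and -0.66.

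Of 10 listed genes of eIF2, of its exchange factor eIF2B and of their partners, Eif2s2 and Eif2s3x included, 3 rose and 2 fell in both knockouts, with medians of 0.05 and 0.09. The exchange factor went both ways: Eif2b3, the gamma subunit, rose by 0.55 and 0.65, and Eif2b4, the delta subunit, fell by 0.33 and 0.49. The fall of Eif2b4 in ClpP cKO was -0.08 under quantile normalization, -0.15 under own totals and -0.15 by voom, none of them called.

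CReP RNA rose with that of GADD34, its stress-induced counterpart, and less than it. Ppp1r15b (ENSMUSG00000046062, chromosome 1, 133131143 to 133139783) stood at 9.92, 10.4 and 9.85 FPKM in the controls, 12.6, 11.5 and 13.0 in ClpP cKO and 12.9, 14.4 and 14.7 in ClpX cKO. All 6 knockout libraries lay above the controls, and those of the knockouts overlapped. It rose by 0.27 in ClpP cKO (SE 0.07, adjusted p = 0.020) and 0.44 in ClpX cKO (SE 0.07, adjusted p = 0.0012), 1.23-fold and 1.39-fold in mean FPKM. The call in ClpP cKO was lost without Control 1, Control 3, ClpP cKO 1 or ClpP cKO 3, with changes of 0.24 to 0.26. Voom gave 0.48 and 0.70, the larger values again on a scale of own totals.

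Ppp1r15a was at 1.90 ± 0.164 FPKM for controls, 3.27 ± 0.196 for ClpP cKO and 4.44 ± 0.960 for ClpX cKO, 1.72-fold and 2.33-fold. The log2 ratio of Ppp1r15b to Ppp1r15a was 2.41 ± 0.170 for controls, 1.92 ± 0.0547 for ClpP cKO and 1.68 ± 0.241 for ClpX cKO (exact permutation p = 0.011, adjusted 0.022). CReP RNA thus exceeded GADD34 RNA per length in every library, by a smaller ratio in the knockouts. Of the catalytic subunits of protein phosphatase 1, Ppp1ca rose by 0.54 and 0.89, while Ppp1cc, whose control level was 192 ± 5.78 FPKM, fell by 0.24 and 0.38. Under quantile normalization Ppp1cc was called in the opposite direction, as an increase of 0.22 in ClpP cKO (limma adjusted p = 0.033) and 0.18 in ClpX cKO (adjusted p = 0.044). Its call as a decrease in ClpP cKO was lost with no filter, under own totals and by voom (-0.05 each), and without any single library of these groups but Control 3. In the list of 4, which holds Ppp1cb as well, 3 rose and 1 fell in each knockout. The Ppp1ca call in ClpP cKO was lost without Control 1, ClpP cKO 2 or ClpP cKO 3.

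In the mitochondrial relay, RNA of the protease rose in ClpX cKO and RNA of its messenger was not called. Oma1 (ENSMUSG00000035069, chromosome 4, 103313812 to 103371868) stood at 2.02, 1.92 and 1.75 FPKM in the controls, 2.95, 2.07 and 2.64 in ClpP cKO and 2.46, 3.01 and 3.31 in ClpX cKO, on only 51 to 121 reads per library. All knockout libraries were above the controls, ClpP cKO 2 by the least. The change was 0.43 in ClpX cKO (SE 0.12, adjusted p = 0.013), 1.54-fold in mean FPKM, and 0.29 in ClpP cKO (SE 0.12, adjusted p = 0.086), not called. The latter was called under own totals, at 0.41, and by voom, at 0.60. Voom gave 0.84 in ClpX cKO.

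Dele1 (ENSMUSG00000024442, chromosome 18, 38250249 to 38262629) stood at 41.1, 42.1 and 36.4 FPKM in the controls, 42.0, 44.6 and 45.0 in ClpP cKO and 42.9, 42.6 and 40.4 in ClpX cKO. The groups overlapped, and Control 3 was the lowest library. Its change was 0.14 in ClpP cKO (95% interval -0.02 to 0.30) and 0.08 in ClpX cKO (-0.09 to 0.24), neither called. This was the member whose call depended most on the scaling: it was called in both knockouts under quantile normalization (0.40 and 0.47), under own totals (0.32 and 0.30) and by voom (0.32 and 0.30).

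Against other inner membrane genes, Oma1 was compared within libraries. YME1L1 is the protease that degrades OMA1, and OPA1, a fusion protein, is cut by both. Yme1l1 fell from 24.0 ± 0.329 FPKM to 19.6 ± 1.69 in ClpP cKO and 17.2 ± 1.54 in ClpX cKO (log2 change -0.28 and -0.46). The log2 ratio of Oma1 to Yme1l1 was -3.66 ± 0.0909 for controls, -2.96 ± 0.188 for ClpP cKO and -2.56 ± 0.319 for ClpX cKO (exact permutation p = 0.011, adjusted 0.022), higher in 6 of 6 knockout libraries than in any control. The Yme1l1 call in ClpP cKO was lost without any single control, without ClpP cKO 2 or 3, with no filter on low values and under quantile, own-total and voom scaling (-0.14 to -0.10). Opa1 was not called (0.09 and 0.14), and the ratio of Oma1 to Opa1 did not pass (exact permutation p = 0.089, adjusted 0.089). This log2 ratio was -2.34 ± 0.120 for controls, -2.02 ± 0.272 for ClpP cKO and -1.87 ± 0.151 for ClpX cKO. Among the knockout libraries, ClpP cKO 2 alone lay within the range of the controls.

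Of 8 listed genes of this membrane, 2 rose and 1 fell in ClpP cKO and 4 rose and 1 fell in ClpX cKO. Stoml2, a scaffold of these proteases, rose by 0.49 and 0.60, and Afg3l2, a subunit of the m-AAA protease, by 0.21 and 0.30. The Afg3l2 call in ClpP cKO was lost with the replicate number as a block, without Control 1, 2 or 3, ClpP cKO 2 or 3 or ClpX cKO 2, without Control 3 and ClpX cKO 1 together, and with no filter.

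**Figure D4:**
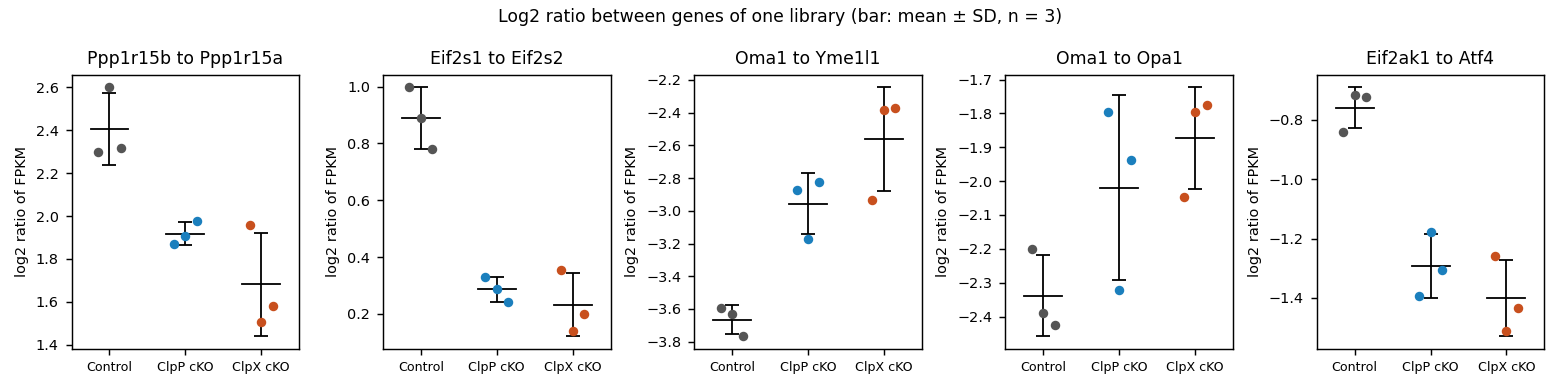
Log2 ratio of FPKM between 2 genes of the same library (vertical axes, not from 0) for 5 pairs, by group; points are libraries and bars the mean ± SD. The ratio of Eif2s1 to Eif2s2 is lower and that of Oma1 to Yme1l1 higher in every knockout library than in every control. For Oma1 to Opa1, ClpP cKO 2 lies among the controls and the other knockout libraries lie above them.

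Genes that act on the kinases rose in part. Of 8 regulators, 4 rose and 0 fell in ClpP cKO and 5 rose and 1 fell in ClpX cKO. They included Impact, an inhibitor of GCN2 activation (0.42 and 0.74; 3.21 ± 0.283 FPKM in the controls and 6.07 ± 0.633 in ClpX cKO), Prkra, an activator of PKR (0.47 and 0.78), and Adar, which edits double-stranded RNA and limits PKR (0.56 and 0.87). Among these 3, inhibitors and the activator thus rose in the same libraries. The regulator that fell in ClpX cKO was Tarbp2 (-0.23, limma adjusted p = 0.0094), named after its values were seen. In ClpP cKO it was at -0.12 and was not called. Of the other sensors of the endoplasmic reticulum and their factor, all 3 rose in both knockouts: Ern1 (0.46 and 0.70), Xbp1 (0.65 and 0.86) and Atf6 (0.27 and 0.40). The Atf6 call in ClpP cKO was lost with no filter and without any single library of these 2 groups, or without ClpX cKO 2.

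Downstream, Atf4 was at 18.2 ± 0.148, 26.6 ± 0.578 and 30.7 ± 4.02 FPKM in controls, ClpP cKO and ClpX cKO. Relative to it, HRI RNA was lower in the knockouts: the log2 ratio of Eif2ak1 to Atf4 was -0.759 ± 0.0696, -1.29 ± 0.108 and -1.40 ± 0.128 (exact permutation p = 0.014, adjusted 0.022). The part in this ratio of reads in the bases shared with Ankrd61 was not tested. Of 12 listed genes of ATF4 and its targets, 9 were tested, of which 5 rose in ClpP cKO and 5 rose and 2 fell in ClpX cKO. Those that fell were Ddit3 (-0.21), a death-promoting factor, and Asns (-0.90), asparagine synthetase, named after their values were seen. Sesn2 (0.55 and 0.92) and Aldh18a1 (1.30 and 1.13) were among those that rose in both. For these lists too, 20.7% of all tested genes rose and 24.0% fell in ClpP cKO, and 32.1% rose and 33.5% fell in ClpX cKO.

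ClpX cKO was then compared with ClpP cKO, a comparison that uses no control library in its values. None of the 8 members was called by limma (0 of 8, or 0 by voom), where 0.104% of all tested genes were. An unadjusted limma p under 0.05 was reached by 3 members, beside 4801 of the 17266 tested genes, so this number does not stand out. Eif2ak3 was higher in ClpX cKO by 0.31 (95% interval 0.03 to 0.58), Eif2ak4 by 0.20 (0.01 to 0.39), and Eif2s1 was at -0.21 (-0.36 to -0.05), with no overlap between the libraries of the groups for these 3, beside 29.9% of tested genes. Their adjusted p were 0.15, 0.17 and 0.11 (limma). Without ClpX cKO 1, which lay towards the ClpP cKO libraries for all 3, Eif2ak4 (0.27), Eif2s1 (-0.25) and Ppp1r15b (0.22) were called, and the number of called genes rose from 18 to 4758. For the other 5 members the interval of the difference reached from -0.22 to 0.43 at the widest ends.

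The scaling decided several calls, as the plot of changes by scaling shows. Scaling by own totals moved the median of all tested genes from 0.01 to 0.16 in ClpP cKO and from 0.00 to 0.18 in ClpX cKO, and voom to 0.20 and 0.22. Increases were 46.3% of all calls in ClpP cKO as deposited, 58.5% under quantile normalization, 71.4% under own totals and 70.1% by voom. In ClpX cKO they were 49.0%, 57.3%, 63.3% and 63.3%. Of the members, 5 were called in ClpP cKO under own totals, all of them increases, and 8 in ClpX cKO, of which 7 were increases. Under that scaling 8396 and 11631 of the 17266 tested genes were called in the same order. Relative to these shifts, Eif2ak3, Eif2ak4, Ppp1r15b and Oma1 stayed above the median of all genes in both knockouts under each of the 5 scalings, and Eif2s1 below it.

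**Figure D5:**
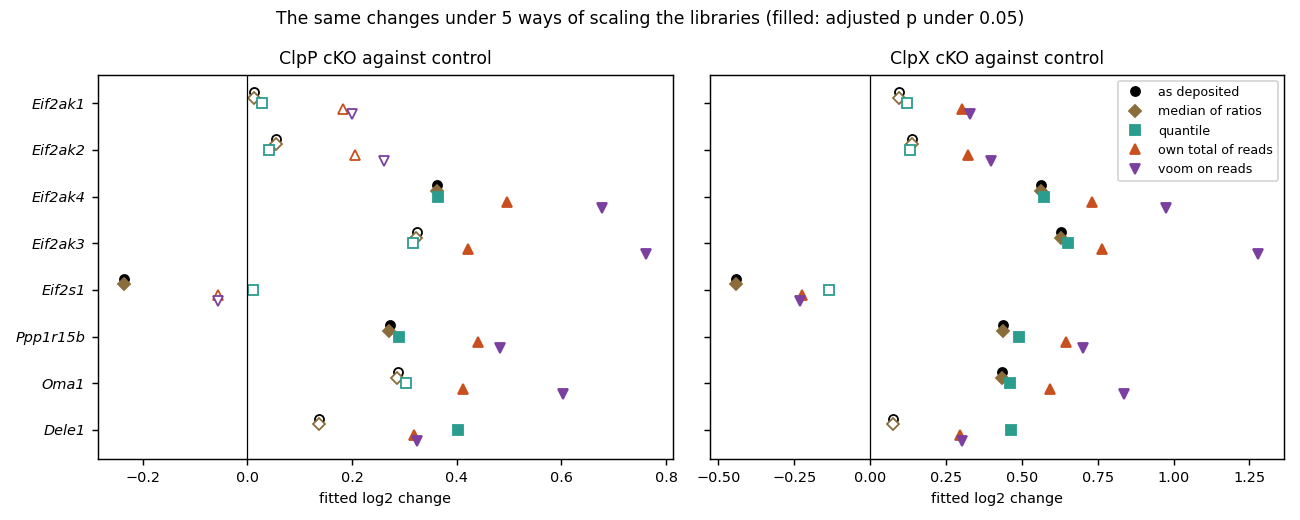
Fitted log2 change (horizontal axes) of each gene in ClpP cKO (left) and ClpX cKO (right) against control under 5 scalings of the libraries; voom uses reads with no pseudocount of 1, so that low genes lie farther from 0. Filled symbols have an adjusted p under 0.05. Eif2ak4 and Ppp1r15b are filled under all 5 in both knockouts, and Dele1 is filled under 3 of the 5.

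The genes whose level over the 9 libraries was most like that of each member (Pearson's r of log2(FPKM + 1), protein-coding tested genes) are a description, since all share the same libraries and group differences. For Eif2ak4 these were Osbpl11 and Igf2r (r = 0.998 each), and 3364 genes had an r of at least 0.9. Eif2ak3 was most like Dhdds (0.994) and Nbl1 (0.988), Ppp1r15b most like Sema7a (0.992) and Slc20a1 (0.991), and Oma1 most like Epb41 (0.969) and Baiap2l1 (0.966). These had 1850, 2420 and 278 genes at 0.9 or more in that order, of 12827 protein-coding tested genes. Eif2s1 was most like Arl4a and Gm28269 (0.997 each), with 2297 genes at 0.9 or more. The members that were not called had fewer such genes. Eif2ak1 had 13, led by Vcp (0.964) and Sec11a (0.958), and Eif2ak2 had 14, led by Slfn5 (0.962) and Lgals2 (0.932). Dele1 had 11, led by Crip3 (0.952) and Kif11 (0.947). Among the members, Eif2ak4 ran with Ppp1r15b (r = 0.96), Eif2ak3 (0.95) and Oma1 (0.88) and against Eif2s1 (-0.95), while its r with Dele1 was 0.40.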

How the data were processed

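RNA sequencing gave 1 library per sample, made from 1.3 ug of total RNA with the SMARTER mRNA-Seq kit per the labels' protocols. The authors deposited FPKM per gene, with gene lengths in bases per the file headers. The build was GRCm38 (mm10), per the submitters' processing notes; the aligner, counter and versions are not given in the sources used here. Whole reads were recovered by multiplying FPKM by gene length, and 100% of values came within 0.01 of a whole read. Testing used limma 3.58.1 (R 4.3.3) on log2(FPKM + 1), with a variance trend and 1 model of all 9 libraries, for genes whose mean FPKM reached 1. Calls are two-sided at an adjusted p (Benjamini-Hochberg, over all 17266 tested genes) below 0.05. Shares and ratios used exact permutation tests over the 9 libraries in Python 3.11.15 with numpy 2.4.6. The fit was tested on simulated reads scaled by their own totals, with far fewer changed genes than were called here. The simulation lacked the factor between libraries of the deposited values, so it cannot show how that factor affects the calls. Members and lists were chosen with earlier results of these data known. Every member is named, and from each pathway list up to 3 called genes with the smallest adjusted p in ClpX cKO, plus the genes of 5 fixed ratios. Tarbp2, Ddit3 and Asns were named after their values were seen. The 2 most alike genes per member are named, while promoter motifs were chosen after seeing the sequences. Replicates of each group differed beyond counting noise (chi-square per degree of freedom 3.58 to 21.2). The largest values were for the pairs with Control 3 (13.0 and 14.0) and with ClpX cKO 1 (18.3 and 21.2). Alternatives were another pseudocount, filter, scaling or model, a replicate block, fits on 6 libraries, and leaving out libraries.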

Additional observations from a re-analysis of the deposited data

How the results depend on the processing

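Against control, the members' results kept direction and call in 265 of 296 alternatives, lost the call in 11, gained it in 15 and changed sign in 5. Another filter, the fit of 6 libraries, the replicate block and leaving out a library of the group not compared cannot change the fitted value. These alternatives bear on the call alone and not on the direction. Members called in ClpP cKO were 3 as deposited, 5 under own totals, 5 by voom and 1 to 3 without 1 library. In ClpX cKO they were 5 as deposited, 8 under own totals, 8 by voom and 2 at a mean FPKM of at least 5, where fewer genes are tested. That filter leaves out Eif2ak2, Eif2ak3, Eif2ak4 and Oma1, and the 2 called were Eif2s1 and Ppp1r15b, as in the main fit. Between the knockouts the members called were 0, 2 without Control 3 and ClpX cKO 1 together, and 0 to 3 without 1 library. Changes of sign against control, all near 0 but that of Ppp1cc, were Eif2ak1 (-0.0310 to 0.0427) and Eif2ak2 (-0.0072 to 0.15) in ClpP cKO without 1 library, Dele1 in ClpX cKO without Control 3 and ClpX cKO 1 (-0.00199, against up to 0.116 without 1 library), and under quantile normalization Eif2s1 (0.0109) in ClpP cKO and Ppp1cc (0.22 and 0.18, both called). Dele1 between the knockouts was 0.0632 under quantile normalization. The Oma1 to Opa1 ratio differed by 0.42 to 0.55 (log2, ClpX cKO minus control) without 1 library and passed without ClpP cKO 2. The 4 kinase shares and the other 4 ratios kept their calls in every alternative run. For the ratios, reads not divided by gene length shift every library by the same constant and cannot change the test. Leaving out 1 library was thus the only alternative that could change their calls. All genes called in ClpP cKO were 7722 as deposited, 8396 under own totals, 8781 by voom and 3617 to 8729 without 1 library. In ClpX cKO they were 11326 as deposited, 11631 under own totals, 11612 by voom and 6871 at a mean FPKM of at least 5. Between the knockouts they were 18, against 29 under quantile normalization, 828 by voom, 89 in a fit of 6 libraries, 5149 without Control 3 and ClpX cKO 1, and 0 to 4758 without 1 library. The cause of these shifts was not tested. The labels tie no replicate numbers together, and the main fit did not pair the libraries. The correlations of their deviations, given next, cannot exclude a pairing. Deviations of same-numbered libraries correlated at 0.064, 0.057 and -0.070 for ClpP cKO and control, 0.126, 0.047 and 0.191 for ClpX cKO and control, and 0.234, 0.173 and 0.020 for ClpX and ClpP cKO. Different numbers gave -0.237 to 0.113, and not every library correlated best with its own number. With the replicate block the members called stayed 3, 5 and 0, and the calls between the knockouts were 1. Depth limits Oma1 and Eif2ak3 most, at 51 and 73 reads in their lowest libraries.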
